A study of Mus musculus with 12 samples.

Results

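Renal gluconeogenesis and fructose entry were described by 7 genes, whose rows were taken from a table of 27179 genes by NCBI Gene number: Pck1, Pcx, Fbp1, G6pc, Slc37a4, Glud1 and Khk. All 7 members were found, and all 7 were among the 14972 genes tested, the ones that reached 1 TPM in 3 or more of the 12 libraries. TPM is a level of transcripts per gene length that sums to 1000000 in each library. Under cisplatin, 5 of the 7 were lower in kidneys that lack FAN1 in the proximal tubule than in wild-type kidneys, where 4.37% of all genes tested were called lower and 19.6% higher (limma, adjusted p under 0.05). Of 10 proximal tubule markers, 7 were lower in the same kidneys. None of the 7 differed by genotype under saline past the test.

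The kidney, like the liver, can make glucose from lactate, glutamine, glycerol and other precursors, and the proximal tubule is where it does so. Pyruvate carboxylase and phosphoenolpyruvate carboxykinase turn pyruvate into phosphoenolpyruvate, fructose-1,6-bisphosphatase removes a phosphate further on, and the glucose-6-phosphatase system of the endoplasmic reticulum releases free glucose. Fructose enters the same chain of intermediates in proximal tubule cells through ketohexokinase, and glutamate from glutamine enters through glutamate dehydrogenase, which also releases ammonia.

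The libraries came from whole kidneys of 12 mice, 3 in each of 4 groups. The mice were wild-type or FAN1KO, a genotype given as {Gamma}GT1-Cre;Fan1-/-, in which a Cre driven by the Ggt1 promoter deletes Fan1 in proximal tubule cells, so that a whole kidney also holds cells outside the reach of the Cre. Both genotypes were 8 to 12 weeks old, were labelled as of mixed strain background, and received an intraperitoneal injection once a week for 5 weeks, of cisplatin at 2 mg/kg or of saline. FAN1 is a nuclease that acts in the repair of DNA interstrand crosslinks, a lesion that cisplatin makes. Nothing in the labels ties mice of different groups to each other, and p-values set a group difference against the spread between these mice. In the main limma fit that spread was estimated within the 4 groups together and moderated over all genes tested.

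Recovered reads numbered 37202169 to 82947648 per library, and the members had 4324 to 154764 reads each in a library, so counting error was small beside the spread between mice. Fan1 itself lay between 1.17 and 3.80 TPM with overlapping genotypes, and so did not check the labels in these whole kidneys. One library in each group held RNA of 4 Y-linked genes and the other 8 did not, and these are named below as mice with and without Y-linked RNA. The wild-type saline library of replicate 2 stood apart by adrenal cortex markers, which summed to 74.2 TPM against at most 3.09 in the others, and by the highest sum of adipocyte markers, 58.8 TPM. The 4 hepatocyte markers summed to 32.8 to 55.4 TPM in FAN1KO cisplatin libraries and 32.0 to 568 TPM in the others, most of it Ttr in the highest, and the 4 did not go one way: Alb was at 2.10 to 2.51 TPM in FAN1KO cisplatin and 3.18 to 19.4 TPM in the other libraries, and Serpina1a at 0.838 to 20.1 TPM against at most 3.67. None of the 4 was called between genotypes under cisplatin, and 1 was called lower and 1 higher between cisplatin and saline in FAN1KO mice. Fat and liver also express some of the members, and the part of these other tissues in the results was not tested.

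The sequence upstream of the start is shown for 4 members that have 1 start in the RefSeq promoter table, since these members differed in what they did: Pck1, Fbp1 and G6pc fell in FAN1KO kidneys with cisplatin against saline, and Glud1 did not. Khk also has 1 start and also fell, and its sequence is not shown. The bases are from RefSeq for GRCm38.p6, which is the mm10 build that the submitters' notes name, and are read 5′ to 3′ on the strand of the gene. They end at the first base before the outermost start of the gene. The positions are chr2:173152823-173153072 on the plus strand for Pck1, chr13:62888299-62888532 on the minus strand for Fbp1, chr11:101367466-101367715 on the plus strand for G6pc and chr14:34310477-34310726 on the plus strand for Glud1. Capitals mark matches to the motifs searched.
Pck1: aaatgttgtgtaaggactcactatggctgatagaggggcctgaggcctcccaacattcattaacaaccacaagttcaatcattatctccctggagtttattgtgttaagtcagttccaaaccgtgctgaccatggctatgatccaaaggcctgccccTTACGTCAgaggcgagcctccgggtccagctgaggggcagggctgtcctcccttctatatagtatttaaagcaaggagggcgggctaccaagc
Fbp1: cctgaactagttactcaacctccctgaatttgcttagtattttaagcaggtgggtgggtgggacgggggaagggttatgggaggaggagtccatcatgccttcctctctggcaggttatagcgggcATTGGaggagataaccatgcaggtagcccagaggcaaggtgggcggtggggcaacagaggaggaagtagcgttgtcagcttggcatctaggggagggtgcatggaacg
G6pc: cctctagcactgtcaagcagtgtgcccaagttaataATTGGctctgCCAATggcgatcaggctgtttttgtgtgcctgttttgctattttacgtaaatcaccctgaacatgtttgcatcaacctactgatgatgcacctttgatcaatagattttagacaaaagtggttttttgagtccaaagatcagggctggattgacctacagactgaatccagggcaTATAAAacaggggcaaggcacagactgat
Glud1: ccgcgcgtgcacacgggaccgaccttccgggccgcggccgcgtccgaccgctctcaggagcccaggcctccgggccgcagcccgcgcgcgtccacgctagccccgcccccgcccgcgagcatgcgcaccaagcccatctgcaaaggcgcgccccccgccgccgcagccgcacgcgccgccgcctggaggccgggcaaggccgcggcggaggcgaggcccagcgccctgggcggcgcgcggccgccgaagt

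Motifs were searched on both strands in windows of 300 bases, 250 before and 50 after each start, and the share of all 32851 windows of the table that held each is the background. All 7 members had a window, and Slc37a4 had 3 and Pcx 2, so that 10 windows were read. The letters TNACGTCA of the cAMP response element, held by 2.93% of all windows, were in the window of Pck1 alone among the members, 93 bases before its start. TATAAA, held by 13.6%, was 29 bases before the start of G6pc and 32 bases before 1 of the 3 starts of Slc37a4. CCAAT, held by 37.4%, was in windows of 3 members, Pcx, Fbp1 and G6pc. GTAAACA (FOXO, 3.65%) and CAAAGTCCA (HNF4, 0.475%) were in none of the 10. Of the 4 sequences shown, that of Glud1 was the richest in G and C, at 82.0%, against 43.2% for G6pc, 50.8% for Pck1 and 55.6% for Fbp1. For Khk, not shown, the share was 59.8% over 127 bases. A match of letters is no evidence that a factor binds, and the lack of a match says nothing of the factor.

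In wild-type saline kidneys the members fell into a high and a lower class of levels. Pck1 was at 1690 ± 714 TPM, Fbp1 at 1630 ± 25.3 and Khk at 1510 ± 130 (mean ± SD, n = 3 throughout). Glud1 followed at 342 ± 71.5 TPM, G6pc at 256 ± 24.6, Slc37a4 at 213 ± 22.2 and Pcx at 213 ± 60.6. The only neighbours in that order whose ranges did not overlap were Khk and Glud1. In FAN1KO cisplatin kidneys Pck1 (935 ± 350 TPM), Khk (829 ± 159) and Fbp1 (677 ± 49.5) were still the 3 highest. There Glud1, at 348 ± 61.7 TPM, stood apart from both its neighbours in the order, Fbp1 above it and Slc37a4 (152 ± 18.4) below it. Among all genes of a library Pck1 ranked between 36 and 217 by TPM, Fbp1 between 49 and 188 and Khk between 52 and 177, so the whole-kidney RNA held these 3 among its most abundant messages in each library.

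**Figure D1:**
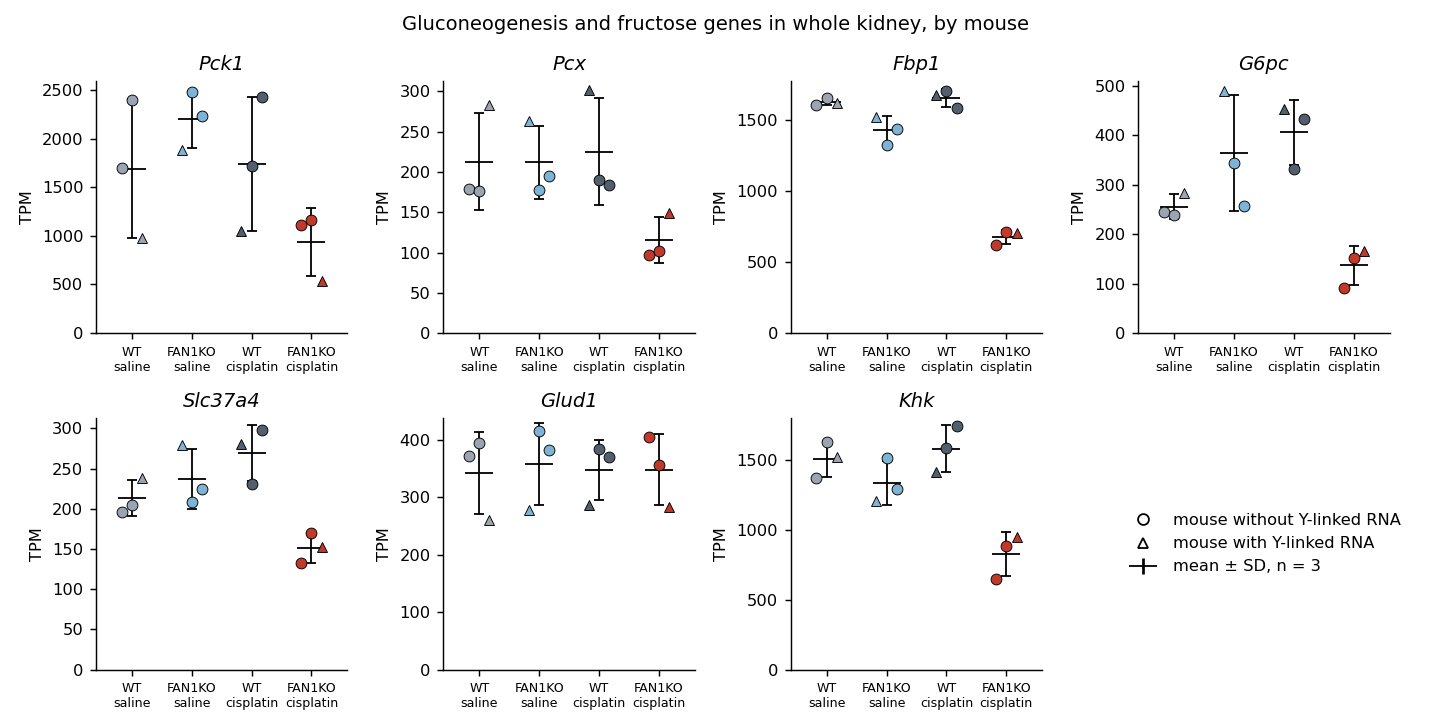
TPM of each gene (y axis, from 0) in each mouse of the 4 groups (x axis); horizontal bars are the mean and error bars the SD of 3 mice, and triangles are the mouse of each group with Y-linked RNA. Fbp1, Khk, G6pc, Slc37a4 and Pcx sat lower in all 3 FAN1KO cisplatin mice than in any mouse of the other groups, and Glud1 overlapped in all 4 groups.

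The main question was how these genes stood in FAN1KO kidneys after cisplatin, with wild-type kidneys as the reference. Of the 7 members, 5 were lower (limma, adjusted p under 0.05) and none was higher. The same 5 had no overlap between the 3 values of each group, as 8.6% of all genes did in that direction and 35.7% did in the other. The median log2 difference of the members was −0.94, beside 0.25 for all genes tested. With median-ratio scaling the calls over all genes were 1154 lower and 1300 higher, in place of 654 and 2931, and of the members Pck1 was then called (adjusted p 0.0274) and Pcx was not. Log2 differences here are of log2(TPM + 1), with adjusted p from limma over all genes tested.

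Fbp1 (NCBI Gene 14121, chr13:62864753-62888298), which encodes the bisphosphatase of the gluconeogenic route, had 1671, 1704 and 1579 TPM in wild-type cisplatin kidneys and 620, 709 and 701 TPM in FAN1KO cisplatin kidneys. All 3 FAN1KO mice lay far below the lowest wild-type mouse. The log2 difference was −1.29 (SE 0.10, 95% confidence interval −1.52 to −1.06, adjusted p 7.86e-05), which is 2.44-fold lower. Fbp1 had the smallest error of the members, and its spread between mice of a group was at most 100 TPM (SD).

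G6pc (14377, chr11:101367716-101377903), the catalytic subunit of glucose-6-phosphatase, had 452, 332 and 434 TPM in wild-type and 92.1, 151.5 and 166 TPM in FAN1KO cisplatin kidneys. The groups were far apart, and the log2 difference of −1.60 (SE 0.26, adjusted p 0.00271) was the largest of the 7, a 3.02-fold lower level. Slc37a4 (14385, chr9:44396946-44402966), the transporter that brings glucose 6-phosphate to that enzyme, had 280, 231 and 298 TPM against 133, 170 and 153 TPM. It fell by less, with a log2 difference of −0.83 (SE 0.15, adjusted p 0.00398), and again without overlap.

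Khk (16548, chr5:30921436-30931248), ketohexokinase, had 1415, 1587 and 1746 TPM in wild-type and 650, 885 and 952 TPM in FAN1KO cisplatin kidneys. All 3 FAN1KO mice were lower, with a log2 difference of −0.95 (SE 0.16, adjusted p 0.00356). Pcx (18563, chr19:4510472-4621752), pyruvate carboxylase, had 302, 191 and 183 TPM against 96.8, 102 and 149 TPM, and its log2 difference was −0.94 (SE 0.26, adjusted p 0.0267). The gene bodies of Pcx, Fbp1 and Slc37a4 overlap other annotated genes (Lrfn4, Gm38679 and Mir7085), and without a stated strand setting shared reads cannot be told apart. The call for Pcx was the least secure of the 5. It was lost with the 6 libraries of the comparison alone (adjusted p 0.0507), with median-ratio scaling (0.0597), and without wild-type cisplatin 1 (0.0981), FAN1KO cisplatin 1 (0.109) or FAN1KO cisplatin 2 (0.0903).

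Pck1 (18534, chr2:173153073-173159274), the cytosolic phosphoenolpyruvate carboxykinase, did not pass the test. Its values were 1054, 1718 and 2434 TPM in wild-type and 1114, 1159 and 532 TPM in FAN1KO cisplatin kidneys, which overlap. The log2 difference was −0.89 (SE 0.40, 95% confidence interval −1.79 to 0.00, adjusted p 0.132). In both groups the mouse with Y-linked RNA had the lowest Pck1. Without those mice the FAN1KO values lay below the wild-type ones (log2 difference −0.85, 2 mice against 2, limma adjusted p 0.0214), and between the mice with Y-linked RNA the difference was −0.99. With a Y-linked covariate in the fit of all 12 libraries the adjusted p was 0.00566, and with median-ratio scaling it was 0.0274. Calls over all genes changed in these settings too, from 654 lower and 2931 higher. They were 1162 and 4328 among the 8 libraries without Y-linked RNA, 1288 and 6035 with the covariate, and 1154 and 1300 with median-ratio scaling.

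Glud1 (14661, chr14:34310727-34345033), glutamate dehydrogenase, was the member that overlapped throughout. It had 287, 384 and 370 TPM in wild-type and 405, 356 and 282 TPM in FAN1KO cisplatin kidneys, and the log2 difference was 0.00 with a 95% confidence interval of −0.47 to 0.47 (adjusted p 0.999). The sign depended on the scaling: it was −0.31 with median-ratio scaling (adjusted p 0.0794), which centres the genes of each library, and −0.10 with mitochondrially encoded genes left out. Median-ratio scaling moved the median of all genes from 0.25 to −0.02, and the members other than Glud1 stayed negative under it.

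The proximal tubule markers moved with these genes. The 10 markers summed to 4180 to 6020 TPM in wild-type and 1550 to 2990 TPM in FAN1KO cisplatin kidneys, 7 of the 10 were called lower and none higher, and none of them was at 0. The median log2 difference of the 10 was −1.22. All 4 injured tubule markers were higher, with sums of 778 to 1160 TPM against 32.8 to 148 TPM. Mitochondrially encoded RNA took 10.2% to 16.7% of the TPM in FAN1KO cisplatin libraries and 18.3% to 22.7% in the other 9. Adipocyte markers, of a tissue that also expresses Pck1 and Pcx, summed to 2.26 to 6.50 TPM in FAN1KO and 1.02 to 34.7 TPM in wild-type cisplatin kidneys. Of the collecting duct principal cell markers 2 of 3 were called higher, with sums of 954 to 1520 TPM in FAN1KO and 269 to 631 TPM in wild-type cisplatin kidneys. For distal convoluted tubule 1 of 3 was called lower (sums of 254 to 629 against 390 to 728 TPM) and for macrophages 1 of 3 higher (38.4 to 84.0 against 29.6 to 53.1 TPM). No tested marker of thick ascending limb, intercalated cells, podocytes, endothelium, fibroblasts or lymphocytes was called between the genotypes under cisplatin. In whole kidneys, fewer cells of a type and less RNA per cell cannot be told apart. The part of these markers in the results was not tested, and levels relative to the proximal tubule markers are given next.

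**Figure D2:**
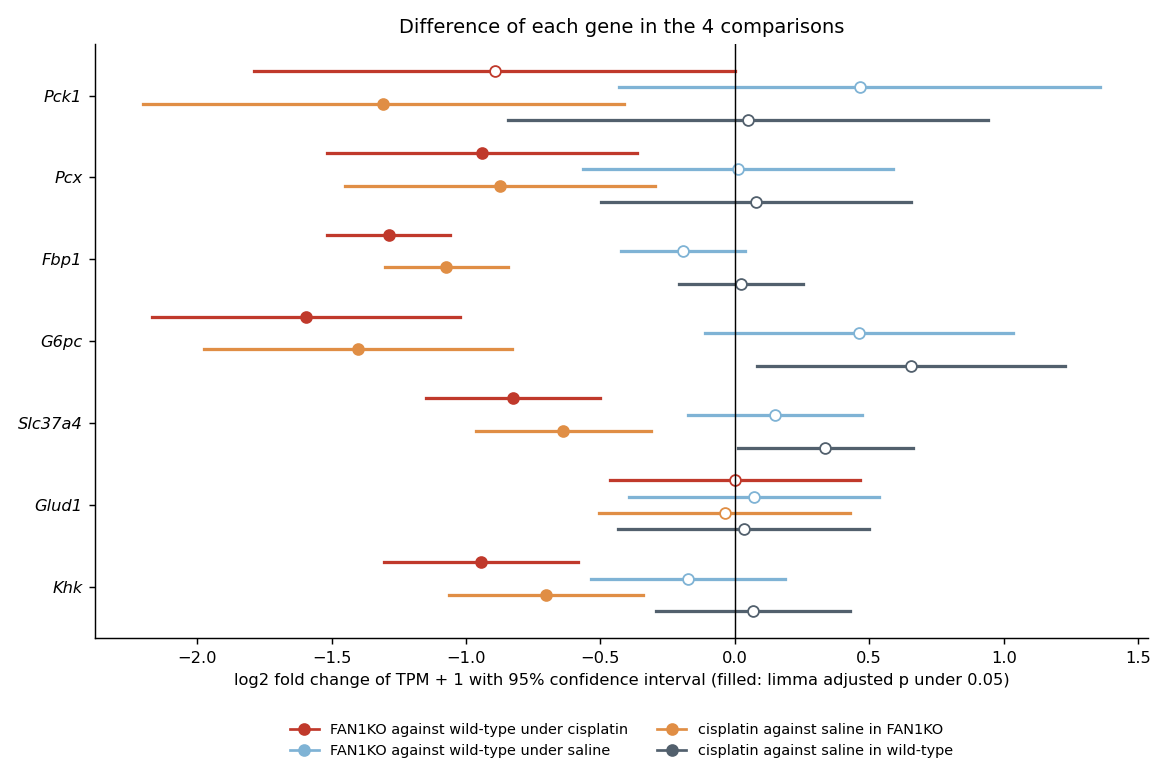
Log2 fold change of TPM + 1 (x axis) of each gene (y axis) in the 4 comparisons, with bars for the 95% confidence interval from limma and filled points for an adjusted p under 0.05. Under cisplatin FAN1KO kidneys had 5 filled points below 0 against wild-type and 6 against FAN1KO saline, and the other comparisons had none.

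Each member was also expressed as its log2(TPM + 1) minus the mean of the 10 proximal tubule markers in the same library. On this scale none of the 7 separated FAN1KO from wild-type cisplatin kidneys, where 0.207% of all genes lay lower without overlap and 55.3% higher. The difference for Fbp1 was −0.08 (exact permutation p 0.8), that for G6pc −0.39 (0.5) and that for Khk 0.26 (0.5), where 3 mice against 3 give no p below 0.1. For Pcx it was 0.27 (exact permutation p 0.4), for Pck1 0.32 (0.6), for Slc37a4 0.39 (0.5) and for Glud1 1.21 (0.3). Glud1 thus had the largest relative value, but the mouse with Y-linked RNA, at 0.74, lay below the 2 highest wild-type mice, at 1.10 and 0.97.

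This relative level depended on the markers and on 1 mouse. Slc7a13, 1 of the 10 markers, had 162 to 795 TPM in the library with Y-linked RNA of each group and 1.23 to 6.68 TPM in the other 8. With the 9 other markers, Glud1 alone separated the groups, higher by 1.18, as 84.8% of all genes did in that direction and 0.307% in the other. With only the first 5 of the 10 markers as listed (Lrp2, Cubn, Slc34a1, Slc5a2 and Slc5a12), Fbp1 (−0.41) and G6pc (−0.71) were lower without overlap, where 0.641% of all genes were and 74.8% were higher. Without FAN1KO cisplatin 3, the mouse with Y-linked RNA, 5 of the 7 separated, all higher, where 95.5% of all genes were higher without overlap and 0.254% lower. Among the mice without Y-linked RNA, 2 against 2, the same 5 lay higher in FAN1KO: Pck1 (0.48), Pcx (0.43), Slc37a4 (0.53), Glud1 (1.34) and Khk (0.20). In that setting 96.0% of all genes were higher without overlap and 0.788% lower, so these 5 of 7 are no result about the members. G6pc had the lowest relative difference of the members with each of the 3 marker lists and among the mice without Y-linked RNA, at −0.34 to −0.71.

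**Figure D3:**
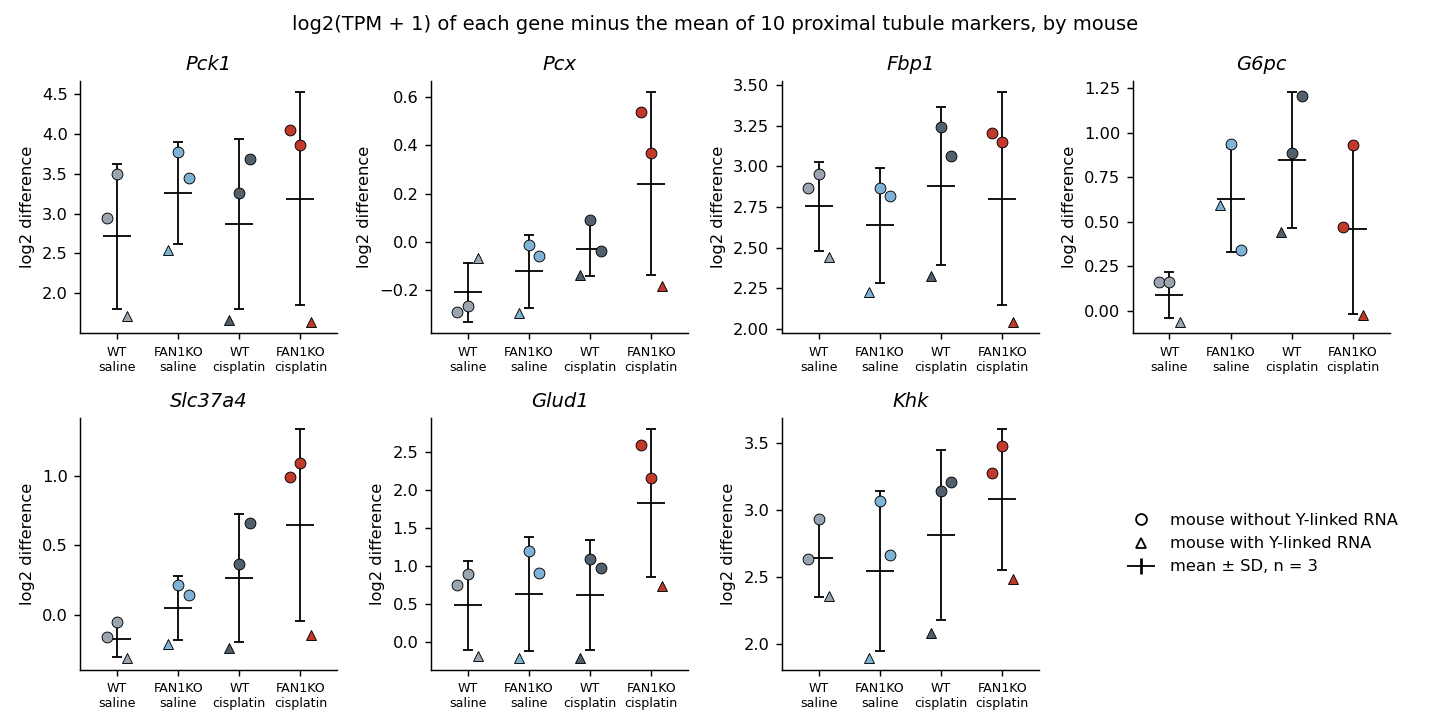
Log2(TPM + 1) of each gene minus the mean of 10 proximal tubule markers (y axis) in each mouse of the 4 groups (x axis), with the mean and SD of 3 mice; triangles are mice with Y-linked RNA. The FAN1KO cisplatin and wild-type cisplatin mice overlap for all 7 genes, and in FAN1KO cisplatin kidneys the triangle is the lowest point for each.

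The same 7 genes were compared between cisplatin and saline within FAN1KO mice, whose cisplatin samples are those of the comparison above. Here 6 of the 7 members were called lower and none higher, beside 4.9% of all genes lower and 34.9% higher. The same 6 had no overlap between groups, as 7.43% of all genes did in that direction and 47.4% did in the other. The members had a median log2 difference of −0.87 and all genes one of 0.37. With median-ratio scaling 2101 genes were called lower and 2157 higher, in place of 733 and 5229, and Glud1 was then called as well (log2 difference −0.50, adjusted p 0.0075).

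Fbp1 had 1518, 1318 and 1436 TPM in FAN1KO saline kidneys, so that the 3 cisplatin values were lower by 1.07 on the log2 scale (SE 0.10, adjusted p 1.24e-04). For G6pc the saline values were 490, 344 and 258 TPM and the log2 difference −1.40 (SE 0.26, adjusted p 0.00243). For Pck1 they were 1887, 2476 and 2235 TPM and the log2 difference −1.31 (SE 0.40, adjusted p 0.0262). For Pck1 all 3 saline mice were higher than any cisplatin mouse, and it was the one member called here and not against wild-type cisplatin kidneys. The Pck1 call was lost without FAN1KO saline 2 (adjusted p 0.0663), FAN1KO saline 3 (0.0619) or FAN1KO cisplatin 3 (0.0827).

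Khk had 1209, 1514 and 1295 TPM in FAN1KO saline kidneys and a log2 difference of −0.70 (SE 0.16, adjusted p 0.00736). Slc37a4 had 279, 208 and 224 TPM and a log2 difference of −0.64 (SE 0.15, adjusted p 0.00717). Pcx had 264, 178 and 195 TPM and a log2 difference of −0.87 (SE 0.26, adjusted p 0.0227). Among the saline mice, the one with Y-linked RNA had the highest Pcx and Slc37a4 and the lowest Khk. The call for Pcx was lost without FAN1KO saline 1 (adjusted p 0.0883), FAN1KO cisplatin 1 (0.0910) or FAN1KO cisplatin 2 (0.0756).

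Glud1 again overlapped, with 278, 415 and 382 TPM in saline mice and a log2 difference of −0.04 (SE 0.21, adjusted p 0.900). With median-ratio scaling it was called lower, at −0.50 (adjusted p 0.00750), and without FAN1KO saline 2, FAN1KO saline 3 or FAN1KO cisplatin 3 its sign was positive, at 0.08, 0.02 and 0.10. Of the 10 proximal tubule markers 7 were lower here too, with a median of −1.36 and a sum of 4760 to 6860 TPM in saline kidneys. Relative to the 10 markers, the members overlapped between FAN1KO cisplatin and FAN1KO saline mice, with differences from −0.17 for G6pc to 1.20 for Glud1, where 0.2% of all genes lay lower without overlap and 65.9% higher.

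Between FAN1KO and wild-type kidneys under saline, none of the 7 members was called, beside 0.427% of all genes lower and 0.341% higher, and none reached an unadjusted p under 0.05 or was called by voom (limma) on recovered reads. Pck1 had 1699, 2402 and 975 TPM in wild-type mice and a log2 difference of 0.46 (95% confidence interval −0.43 to 1.36, adjusted p 0.973). G6pc had 246, 238 and 284 TPM, and the difference was 0.46 (−0.11 to 1.03, adjusted p 0.755), with the FAN1KO mouse at 258 TPM inside the wild-type range. Fbp1 was the one member without overlap, since its wild-type values of 1606, 1654 and 1617 TPM all lay above the highest FAN1KO value, but the log2 difference of −0.19 (−0.42 to 0.04) did not pass (adjusted p 0.728), and 7.83% of all genes were lower without overlap and 4.62% higher.

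For the other 4 the saline groups overlapped. Khk had 1372, 1630 and 1525 TPM in wild-type saline kidneys and a log2 difference of −0.17, Slc37a4 had 197, 204 and 238 TPM and one of 0.15, Glud1 had 371, 394 and 260 TPM and one of 0.07, and Pcx had 179, 176.5 and 283 TPM and one of 0.01. Relative to the proximal tubule markers, G6pc was higher without overlap in FAN1KO saline mice by 0.54 (exact permutation p 0.1, the smallest possible), where 1.44% of all genes were and 1.48% were lower. The proximal tubule markers themselves had none called in this comparison.

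Cisplatin against saline in wild-type mice left the members without a call by limma as well, on TPM or by voom on recovered reads, with 2 of the 7 at an unadjusted p under 0.05. Of all genes, 0.0601% were called higher and 0.0% lower, with 449 genes at an unadjusted p under 0.05. G6pc had the largest difference. Its 3 cisplatin values lay above all 3 saline values, as those of 5.2% of all genes did (1.08% lay lower), and the log2 difference was 0.65 (SE 0.26, 95% confidence interval 0.08 to 1.23, unadjusted p 0.0288, adjusted p 1.0 by limma). Slc37a4, the partner transporter, had a log2 difference of 0.34 (SE 0.15, unadjusted p 0.0439, adjusted p 1.0 by limma) with overlapping groups. Relative to the proximal tubule markers G6pc was higher without overlap by 0.76 (exact permutation p 0.1), where 1.02% of all genes were and 0.16% were lower. The other 5 members had log2 differences between 0.02 (Fbp1) and 0.08 (Pcx), and all 5 were below 0 with median-ratio scaling. Their 95% confidence intervals ran from −0.21 to 0.25 for Fbp1, from −0.29 to 0.43 for Khk and from −0.85 to 0.94 for Pck1.

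Whether cisplatin acted differently in the genotypes was tested as the effect in FAN1KO minus that in wild-type mice. It was called for 3 of the 7, all lower, beside 1.02% of all genes lower and 5.22% higher. For G6pc the difference of effects was −2.06 on the log2 scale (SE 0.37, adjusted p 0.0156), made up of −1.40 in FAN1KO and 0.65 in wild-type mice. For Fbp1 it was −1.10 (SE 0.15, adjusted p 0.00597), from −1.07 and 0.02. For Slc37a4 it was −0.97 (SE 0.21, adjusted p 0.0269), from −0.64 and 0.34.

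The call for Slc37a4 was not secure. It was lost with median-ratio scaling (adjusted p 0.0842) and without any 1 of 7 libraries: wild-type saline 1 (0.0703) or 2 (0.0667), FAN1KO saline 1 (0.0550) or 3 (0.0510), wild-type cisplatin 1 (0.0574) or 3 (0.0525), and FAN1KO cisplatin 1 (0.0761). Khk (−0.77, adjusted p 0.0711), Pcx (−0.95, 0.141) and Pck1 (−1.36, 0.171) did not pass, and Glud1 was at −0.07. With a Y-linked covariate 6 of the 7 were called, Khk (adjusted p 0.0266), Pcx (5.39e-04) and Pck1 (0.00713) with them, and among the 8 libraries without Y-linked RNA 5 of the 7 were, all lower. Calls over all genes rose in these settings too, to 4.31% lower and 27.3% higher with the covariate and to 2.9% and 13.4% among the 8 libraries.

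Among the members, 4 differed between the mice with and without Y-linked RNA, in a limma fit with the 4 groups and that presence as terms, which was added after the data had been seen. Pck1 was lower with Y-linked RNA by 0.85 on the log2 scale (SE 0.15, adjusted p 0.00118) and was lowest in that mouse in 4 of 4 groups. Glud1 was lower by 0.47 (SE 0.06, adjusted p 2.54e-04), also in 4 of 4. Pcx was higher by 0.61 (SE 0.05, adjusted p 7.10e-05) and G6pc by 0.42 (SE 0.14, adjusted p 0.0302), each highest in that mouse in 4 of 4 groups. Fbp1 (0.06), Khk (−0.02) and Slc37a4 (0.19, adjusted p 0.113) were not called.

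These 4 of 7 stood beside 56.3% of all genes called in this contrast, 50.0% lower and 6.31% higher, so the share is near the background. The mouse with Y-linked RNA is 1 per group, and its sex cannot be told apart from whatever else is its own.

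The genes whose pattern over the 12 libraries was most like that of each member were listed by Pearson's r of log2(TPM + 1), as a description over libraries that share groups. For Fbp1 they were Atp5b (r 0.979), Kmo (0.976) and Col4a3 (0.975). For G6pc and for Slc37a4 the list shared Aldh7a1 (0.940 and 0.915). For Khk it held the globin genes Hba-a2 (0.957) and Hbb-bs (0.947), for Pcx it was led by Ecsit and Slc17a3 (both 0.979), for Pck1 by Kalrn (0.933) and for Glud1 by Golim4 (0.979).

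The rest of the route was read from 6 lists of 108 different genes, 101 of them tested. Under cisplatin, with wild-type kidneys as the reference, 20 of the 101 in FAN1KO kidneys were lower and 13 higher, beside 4.37% of all genes lower and 19.6% higher, which is the background of each list named here. The median log2 difference was 0.03 beside 0.25 for all genes. By list, 7 of 21 substrate entry and carrier genes were lower and 1 higher, and 4 of 14 shared gluconeogenic enzymes were higher. The lists overlap in 1 gene, and Slc13a3 and Slc5a12 are also proximal tubule markers.

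**Figure D4:**
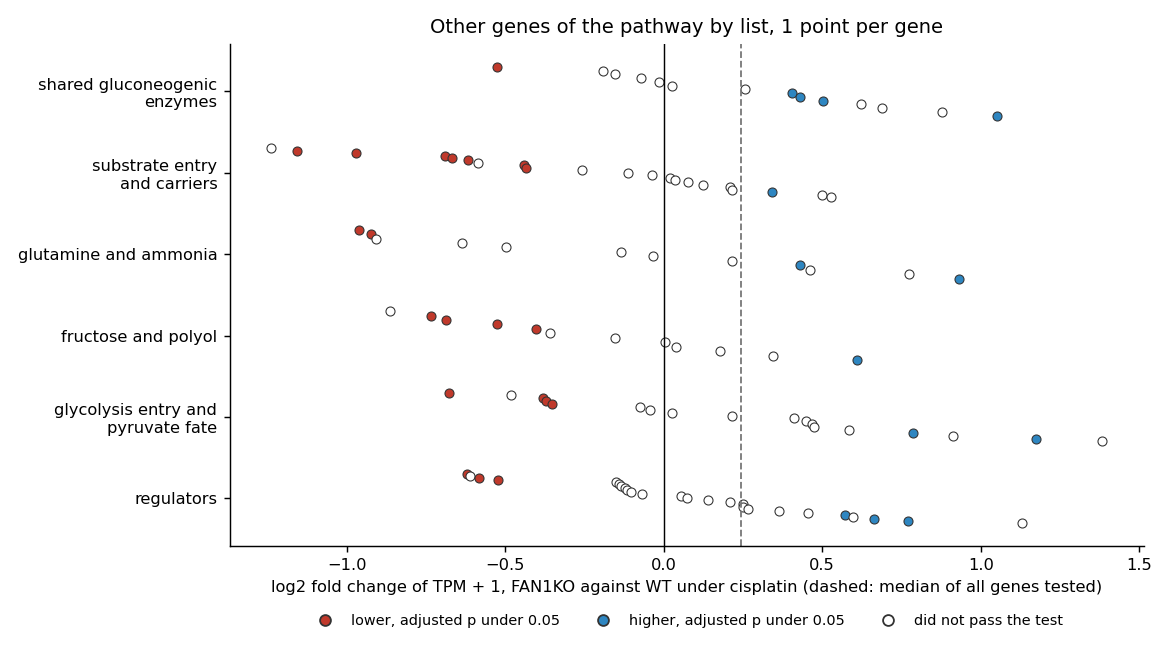
Log2 fold change of TPM + 1 in FAN1KO against wild-type cisplatin kidneys (x axis) of each tested gene of 6 pathway lists (y axis), 1 point per gene, filled where the limma adjusted p was under 0.05; the dashed line is the median of all genes tested, 0.25. Substrate entry and carriers had 7 filled points below 0 and 1 above, and shared gluconeogenic enzymes 4 above.

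Other enzymes of the same families were read first. Pck2, the mitochondrial phosphoenolpyruvate carboxykinase, was 25.2 ± 3.42 TPM in FAN1KO against 12.0 ± 3.81 in wild-type cisplatin kidneys, higher by 1.05 (SE 0.27, adjusted p 0.0182), and it lost the call without wild-type cisplatin 1, FAN1KO cisplatin 1 or FAN1KO cisplatin 2 (adjusted p 0.0511 to 0.0794). G6pc3, the widely expressed glucose-6-phosphatase, had 98.4, 105 and 100 TPM in FAN1KO and 70.3, 69.2 and 74.4 TPM in wild-type mice. It was higher by 0.50 (SE 0.08, adjusted p 0.00235), and by 0.20 with median-ratio scaling (0.464). Fbp2, the muscle type of the bisphosphatase, was 119 ± 29.1 against 73.0 ± 40.9 TPM and overlapped (adjusted p 0.408). It was called higher with the Y-linked covariate (0.92, adjusted p 0.0276) and among the 8 libraries without Y-linked RNA (0.49, 0.0394). Calls over all genes rose there too, to 1288 lower and 6035 higher and to 1162 and 4328. G6pc2, the islet form, was at most 0.27 TPM in all 12 libraries and was not tested.

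Of the fructose and polyol genes 4 of 12 were lower and 1 higher. Tkfc, which phosphorylates glyceraldehyde derived from fructose, was lower by 0.40 in FAN1KO (SE 0.10, adjusted p 0.0197), and Mlxipl, the sugar-responsive transcription factor ChREBP, by 0.69 (SE 0.18, adjusted p 0.0200). Slc2a8, a glucose transporter of internal membranes, was higher by 0.61 (SE 0.19, adjusted p 0.0393). The calls of all 3 were lost without FAN1KO cisplatin 1 (Tkfc 0.0825, Mlxipl 0.0837, Slc2a8 0.150), and without other libraries too. Slc2a5, the fructose transporter GLUT5, had a log2 difference of −0.86 without overlap but an adjusted p of 0.0650. It was called lower in some other settings, among them median-ratio scaling (adjusted p 0.0151), the Y-linked covariate (0.031) and voom (0.0447). Slc2a2, the basolateral transporter GLUT2, overlapped (−0.15, adjusted p 0.536).

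Substrate entry had 7 of 21 genes called lower, a share like the 4 of 12 among the fructose and polyol genes. Slc13a3, a dicarboxylate carrier of the basolateral membrane, was 213 ± 58.5 TPM in FAN1KO against 466 ± 25.7 in wild-type cisplatin kidneys (log2 difference −1.16, SE 0.18, adjusted p 0.00210). Gk, glycerol kinase, was 94.3 ± 22.9 against 183 ± 24.5 TPM (−0.97, SE 0.18, adjusted p 0.00464). Ldhb, a subunit of lactate dehydrogenase, was called higher by 0.34 (adjusted p 0.0452), close to the median of all genes, and was at 0.03 with median-ratio scaling; the call was lost without any 1 library but FAN1KO saline 1 (adjusted p up to 0.143). Of the glutamine and ammonia genes, 2 of 12 were lower and 2 higher. Aldh4a1, of proline breakdown, fell by 0.96 (SE 0.11, adjusted p 4.46e-04) and Slc9a3, the apical sodium-proton exchanger, by 0.92 (SE 0.21, adjusted p 0.0126). Asns, asparagine synthetase, rose by 0.93 (SE 0.25, adjusted p 0.0217). Without FAN1KO cisplatin 1 the calls of Slc9a3 (0.0594) and Asns (0.0774) were lost, and without FAN1KO cisplatin 2 likewise (0.0525 and 0.0613).

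The opposing route of glycolysis entry and pyruvate use had 4 of 18 genes lower and 2 higher. Hk2, hexokinase 2, had 3.62, 2.26 and 1.97 TPM in FAN1KO and 0.408, 0.6 and 0.729 TPM in wild-type cisplatin kidneys, a difference of 1.17 (SE 0.23, adjusted p 0.00656) from low levels. Outside FAN1KO cisplatin mice only wild-type saline 2, at 1.01 TPM, reached 1 TPM. Hk2 was therefore tested only through the group where it was high, and its call is no support for a rise of this route. Pfkfb1 was higher by 0.79 (SE 0.17, adjusted p 0.0101), with 2.78, 2.49 and 1.47 TPM in FAN1KO and at most 0.869 TPM in wild-type cisplatin mice. No library outside FAN1KO cisplatin reached 1 TPM, so Pfkfb1 too was tested only through the group where it was high. Its call was also lost with the 6 libraries of the comparison alone (0.058). Pdk2, a kinase that turns pyruvate dehydrogenase off, and Pdha1, a subunit of that complex, were both lower, by 0.68 (SE 0.17, adjusted p 0.0198) and 0.38 (SE 0.09, adjusted p 0.0167). The call of Pdk2 was lost without wild-type cisplatin 3 (0.0619) or FAN1KO cisplatin 1 (0.0831), and that of Pdha1 without wild-type cisplatin 1 (0.0530) or FAN1KO cisplatin 2 (0.0627).

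Of 25 regulators 3 were lower and 3 higher. Pth1r, the parathyroid hormone receptor, fell by 0.58 (SE 0.14, adjusted p 0.0164). Sirt6 (0.77, SE 0.17, adjusted p 0.0107) and Irs2 (0.66, SE 0.20, adjusted p 0.0384) were higher. Ppargc1a and Foxo1, known activators of Pck1 and G6pc transcription in the liver, overlapped between the groups, at 0.14 and −0.15 on the log2 scale (adjusted p 0.742 and 0.665), and Ppargc1a was at −0.15 with median-ratio scaling. Without FAN1KO cisplatin 1 the calls of Pth1r (0.0671), Sirt6 (0.0523) and Irs2 (0.149) were lost, those of Pth1r and Irs2 without other libraries too. Of the 21 calls outside the members that the naming rule gave, those of Slc13a3, Gk, Aldh4a1, Hk2, G6pc3 and Pfkfb1 were kept without any 1 library, and the other 15 were lost without at least 1. Only 4 of the 21 held in each other setting as well. G6pc3 was lost with median-ratio scaling (adjusted p 0.464) and Pfkfb1 with the 6 libraries alone (0.058). Median-ratio scaling also ended the calls of Slc2a8 (0.103), Irs2 (0.261) and Pth1r (0.0513). Hk2 and Pfkfb1 were tested only through the group where they were high.

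With cisplatin against saline in FAN1KO mice, 18 of the 101 were lower and 21 higher, beside 4.9% of all genes lower and 34.9% higher, with a median of 0.08 beside 0.37 for all genes. Asns rose by 1.84 (SE 0.25, adjusted p 5.22e-04) and Pck2 by 1.19 (SE 0.27, adjusted p 0.00599), G6pc3 by 0.60 (SE 0.08, adjusted p 4.96e-04), which was lost with median-ratio scaling (0.580), and Hk2 by 1.61 (SE 0.23, adjusted p 7.35e-04). Hk2 was tested only through the FAN1KO cisplatin group, where it was high. The saline level of Asns from which it rose was 2.83, 6.45 and 5.85 TPM in FAN1KO mice. In wild-type saline mice Asns was at 11.2, 9.71 and 8.79 TPM, a genotype difference of −0.902 that did not pass (adjusted p 0.196). Slc13a3 fell by 1.50 (SE 0.18, adjusted p 2.90e-04) and Gk by 1.24 (SE 0.18, adjusted p 7.07e-04).

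Further genes were named in this comparison alone. Glyctk, glycerate kinase, fell by 1.41 (SE 0.24, adjusted p 0.00148) and Sord, sorbitol dehydrogenase, by 1.08 (SE 0.23, adjusted p 0.00487). Against wild-type cisplatin kidneys Glyctk was also called lower (−0.735, adjusted p 0.0453), and Sord did not pass (−0.358, 0.277). Under saline both were higher in FAN1KO than in wild-type kidneys, by 0.616 and 0.60, without passing (adjusted p 0.459 and 0.458). Pdk4, a kinase of pyruvate dehydrogenase, rose by 2.18 (SE 0.52, adjusted p 0.00848) from 7.63 ± 5.03 to 36.3 ± 14.0 TPM, and Cebpb, a transcription factor of the acute response, by 2.04 (SE 0.41, adjusted p 0.00366). Slc38a3, a glutamine carrier, was called higher by 1.28 (adjusted p 0.0199), Eno3 by 0.94 (0.0128), Nr4a1 by 1.26 (0.0313), and Klf15 lower by 0.76 (0.0224). Those 4 calls were lost without FAN1KO cisplatin 2 (adjusted p 0.0502 to 0.0830), and all but that of Eno3 without FAN1KO cisplatin 1 (0.0717 to 0.116). With median-ratio scaling the calls of Slc38a3 (adjusted p 0.128) and Nr4a1 (0.0569) were lost. In the comparisons under saline and within wild-type mice, none of the 101 genes was called in either direction by limma, with 7 and 3 at an unadjusted p under 0.05.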

How the data were processed

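RNA of 12 whole kidneys, 3 mice in each of 4 groups, was sequenced. The authors deposited 1 table of TPM (transcripts per gene length, summing to 1000000 per library) for 27179 NCBI Gene numbers. The submitters' notes name mm10 and limma, the counter and strand setting are not given in the sources used here, and 0 columns were left out. Symbols came from RefSeq GRCm38.p6, which lacked 1904 of the numbers. The members and lists were chosen with earlier results of these data known.

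Comparisons used limma 3.58.1 (R 4.3.3) on log2(TPM + 1) with 4 group means, a mean-variance trend and Benjamini-Hochberg adjustment over 14972 genes that reached 1 TPM in 3 or more libraries (threshold 0.05, two-sided). The fit was tested on simulated data. Exact permutation tests were two-sided. All 232991 values above 0 came out as whole reads, within a tolerance under 0.25 of a read, and for 380 of 401 short RNA genes the recovered length was the annotated one. This gave 37202169 to 82947648 reads per library, and voom on these reads was an alternative.

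Besides the members, the named genes were fixed family members, fructose genes and regulators, and from each list up to 2 rises and 2 falls per comparison among called genes without overlap. Some genes that this rule names, and 1 motif searched, are not reported here. For each member, the 3 genes most like it were listed. Alternatives changed the pseudocount, filter, scaling, libraries, trend, marker list or covariates. Those without Y-linked RNA, without Slc7a13, leaving out libraries for the relative levels, and the fit of Y-linked RNA were chosen after seeing the data. Replicate numbers name different mice and were not used as pairs.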

Additional observations from a re-analysis of the deposited data

Results flagged for a closer look

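The effect of cisplatin differed between the genotypes, by the interaction test of limma over all genes, for 3 of the 7 members. The effect in FAN1KO minus that in wild-type mice was −2.06 on the log2 scale for G6pc (adjusted p 0.0156), −1.10 for Fbp1 (adjusted p 0.00597) and −0.97 for Slc37a4 (adjusted p 0.0269). For Slc37a4 the call was lost with median-ratio scaling (adjusted p 0.0842) and without any 1 of 7 libraries, the highest adjusted p being 0.0761 without FAN1KO cisplatin 1. Proximal tubule markers were lower in the same FAN1KO cisplatin libraries, and their part in the 3 differences was not tested.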

How the results depend on the processing

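Of the 7 members, 4 of the 5 calls between FAN1KO and wild-type kidneys under cisplatin and 4 of the 6 within FAN1KO mice held without any 1 library and in each other setting (Fbp1, G6pc, Slc37a4 and Khk in both). Where a value changed sign or side, the cause was not tested. The members called without 1 library ranged from 4 to 5 and from 5 to 6 in these comparisons, from 0 to 0 under saline and within wild-type mice, and from 2 to 4 for the interaction. For the interaction 6 were called with the Y-linked covariate and 5 among the 8 libraries without Y-linked RNA, while calls over all genes went from 153 lower and 782 higher to 646 and 4088 and to 434 and 2004. Members whose level relative to the proximal tubule markers separated the genotypes under cisplatin numbered 2 with the first 5 markers alone, 1 without Slc7a13, 5 among the 4 compared libraries without Y-linked RNA, and 0 to 5 without 1 library (5 without FAN1KO cisplatin 3 and 0 without each of the other 5). Over all genes, 95.5% to 96.0% lay higher without overlap in the settings that gave 5.

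Signs changed mainly where the value was near 0. With median-ratio scaling, Glud1 was at −0.306 and Ppargc1a at −0.147 between genotypes under cisplatin, Ldhb at −0.131 and Foxo1 at −0.056 within FAN1KO mice, and Pck1 (−0.055), Pcx (−0.024), Fbp1 (−0.082), Glud1 (−0.071) and Khk (−0.037) within wild-type mice. Without mitochondrial genes Glud1 was at −0.10 between genotypes under cisplatin and Fbp1 at −0.010 within wild-type mice, and by voom they were at −0.037 and −0.004. With the Y-linked covariate Pcx under saline was at −0.004. Among the 8 libraries Glud1 within wild-type mice was at −0.022 and Slc2a5 within FAN1KO mice at 0.007.

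Without 1 library, Glud1 ranged from −0.129 to 0.143 between genotypes under cisplatin, from −0.113 to 0.243 under saline, from −0.210 to 0.104 within FAN1KO mice, from −0.152 to 0.163 within wild-type mice and from −0.242 to 0.113 for the interaction. Pcx ranged from −0.155 to 0.233 under saline and from −0.151 to 0.301 within wild-type mice, where Pck1 ranged from −0.301 to 0.368, Fbp1 from −0.001 to 0.054 and Khk from −0.006 to 0.145. Slc2a2 (−0.285 to 0.019), Ppargc1a (−0.004 to 0.219) and Foxo1 (−0.352 to 0.036) did so between genotypes under cisplatin, and Tkfc (−0.102 to 0.008), Slc2a5 (−0.305 to 0.234) and Ppargc1a (−0.283 to 0.083) within FAN1KO mice.

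Of all genes between genotypes under cisplatin, 654 were lower and 2931 higher, against 1154 and 1300 with median-ratio scaling, 1288 and 6035 with the Y-linked covariate and 454 and 1721 with the 6 libraries alone. Within FAN1KO mice 733 and 5229 became 2101 and 2157 with median-ratio scaling. Same-numbered mice did not deviate together (correlations −0.61 to 0.60, means −0.24 to −0.14). With a replicate block 5, 0, 6, 0 and 2 members were called in the 5 contrasts, the lost one being Slc37a4 in the interaction (adjusted p 0.0531), and the interaction calls over all genes went from 153 lower and 782 higher to 73 and 351. The members had at least 4324 reads in each library.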
